A study of Mus musculus with 4 samples.

Results

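Imprinted genes were examined in mouse embryonic stem (ES) cells with reduced Fmr1, the gene of the RNA-binding protein FMRP. They were taken from a list of 38 genes known to be expressed from 1 parental allele in at least some mouse tissues. A gene counted as measured where an array feature carried its symbol and no other. Of the 38 genes, 35 were measured, by 80 features, among 19083 genes in all. Rtl1, Slc22a3 and Zrsr1 had no such feature and are not analysed here.

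The shFmr1 cells carried a GFP lentivirus whose hairpin RNA targets Fmr1 in exon 1, and the shCT cells carried the same kind of virus with a random hairpin. Both were sorted for transduced cells and kept as mixed populations, so neither is a clone, and no other agent, genotype or time point is given in the labels. Each of 4 Agilent 2-colour arrays held 1 shFmr1 RNA and 1 shCT RNA. The shFmr1 RNA was in Cy5 in replicates 1 and 3 and in Cy3 in replicates 2 and 4. Each value is a log2 ratio, with shFmr1 on top, so that 1 is a doubling in shFmr1 cells. The base of the logarithm and the direction are not stated for the deposited values. Base 2 is a reading, and the direction is called likely because the targeted gene was below 0 on arrays of both dye orientations. As the table holds ratios and no levels, whether a gene was expressed at all, or whether ES cell markers were present, could not be read from it.

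Imprinted genes lie mostly in clusters, in which a control region that is methylated on the chromosome from 1 parent sets which copy of each gene is active. Many act in growth of the embryo and placenta, with paternally expressed genes such as Igf2 promoting growth and maternally expressed ones such as H19, Igf2r and Cdkn1c restraining it. In cultured ES cells these methylation marks are known to be less stable than in the embryo.

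Fmr1 itself read -0.86, -1.65, -1.34 and -1.61 in replicates 1 to 4. It was below 0 on each array, with a mean of -1.37 ± 0.36 (SD, n = 4) and a limma adjusted p of 0.156. Across all genes, limma with a dye term called 0 of 19083, or 0%, at an adjusted p of 0.05, while 719 had an unadjusted p under 0.05. Gene values of different arrays correlated between -0.05 and 0.06 over genes, which are not independent replicates. Separate cultures are not stated for the replicates, and the p-values then cover only the spread between these samples, possibly technical.

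None of the 35 imprinted genes passed the test, which left adjusted p-values of 0.973 or more (limma, Benjamini-Hochberg over all genes). The median of their mean log2 ratios was -0.02, beside -0.001 for all genes, with 14 means above 0 and 21 below. At an unadjusted p under 0.05, 3 of the 35 were lower and 0 higher, where 2.05% of all genes were lower and 1.71% higher, 3.77% in all. The means ran from -0.71 for Peg10 to 0.18 for Grb10. The single arrays spread far more than these means. A difference of at least 1 log2 unit between the highest and the lowest array was found in 8 of 35 imprinted genes, namely Igf2, H19, Mest, Dlk1, Snrpn, Peg10, Nnat and Grb10, against 8.01% of all genes. Among genes with several features it was 5 of 21 imprinted genes against 4.6% of all such genes.

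**Figure D1:**
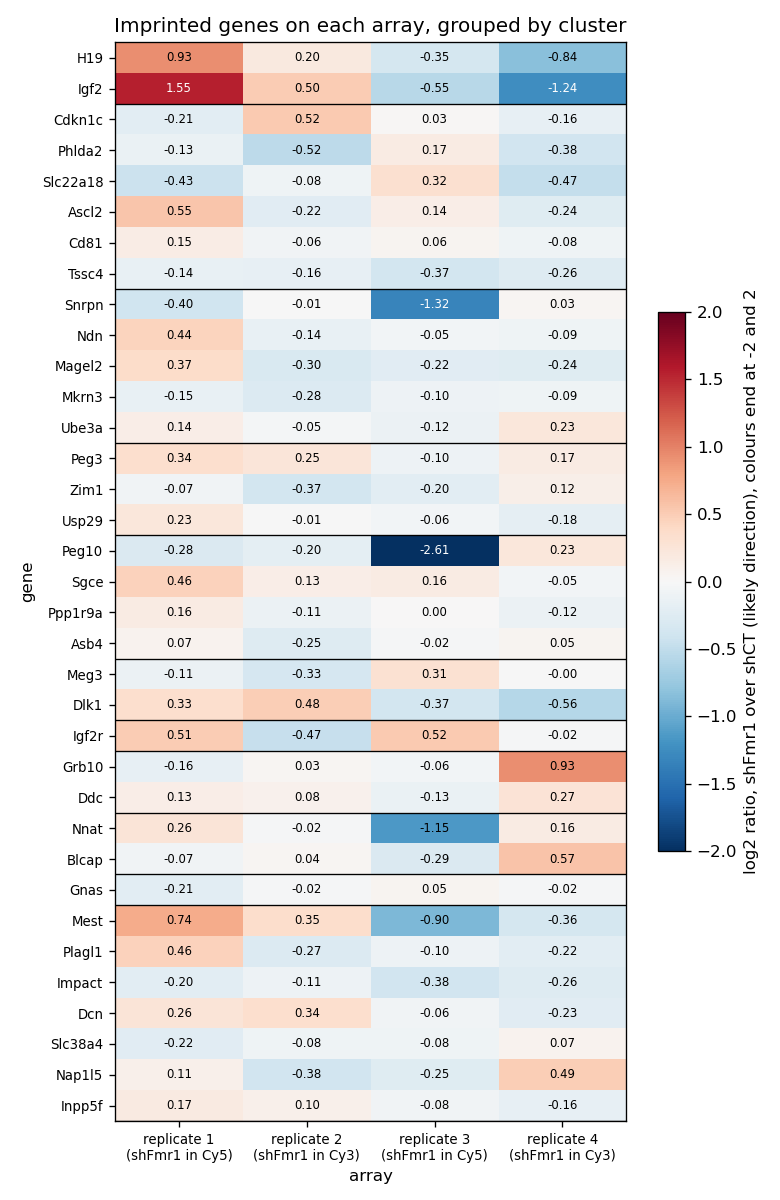
Log2 ratios of shFmr1 over shCT for the 35 measured imprinted genes (rows, grouped by cluster with lines between clusters) on the 4 arrays (columns), with red above 0, blue below 0 and colours ending at -2 and 2. Igf2 is at 1.55 in replicate 1 and at -1.24 in replicate 4, and the darkest blue cell is Peg10 in replicate 3, at -2.61.

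**Figure D2:**
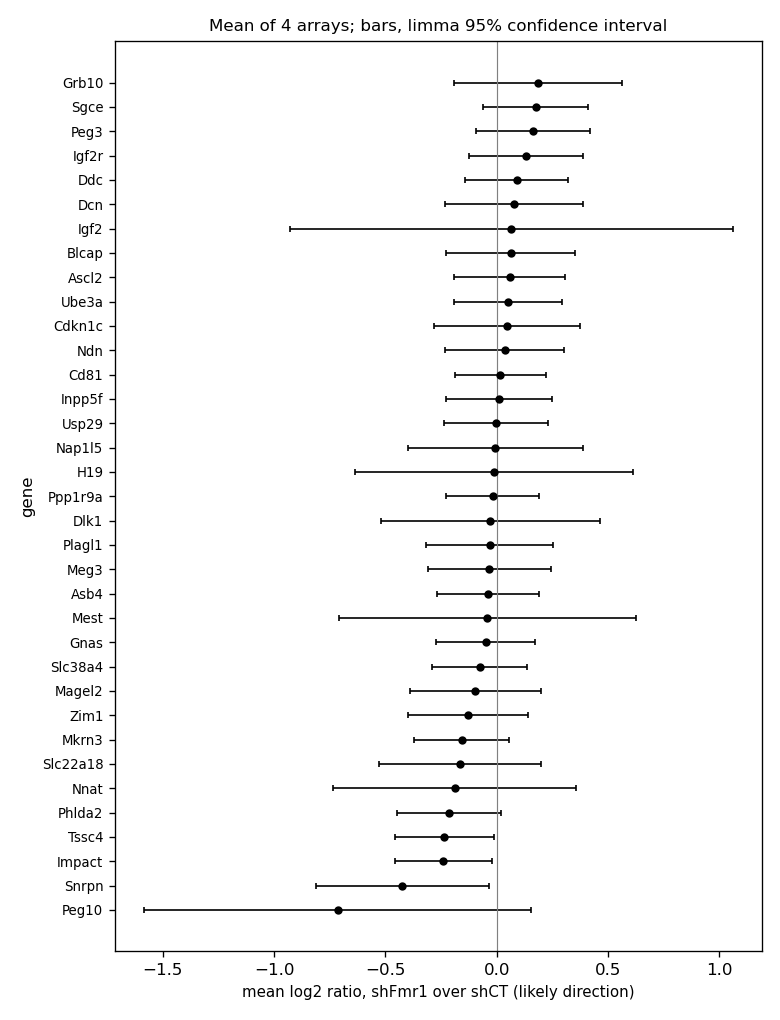
Mean log2 ratio of shFmr1 over shCT over the 4 arrays for each of the 35 measured imprinted genes (points), with the limma 95% confidence interval (bars), ordered by the mean. The interval lies wholly below 0 for Snrpn, Impact and Tssc4, none of which passed after adjustment over all genes.

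The upstream sequences of some members with a wide range between arrays are shown because several of these moved together and because imprinting acts through methylated CpG sites. They are the 250 bases before the RefSeq transcript start (GRCm38.p6) for Igf2, Dlk1 and Mest, which were high and low on the same arrays, and for Snrpn, which was lowest in replicate 3. Where RefSeq gives several starts, the one furthest downstream was taken. Capitals mark the hexamer TGCCGC or its reverse complement GCGGCA, the letters that the imprint-guarding zinc finger protein ZFP57 recognises when methylated. The positions are chr7:142657497-142657746 on the minus strand for Igf2, chr12:109452573-109452822 on the plus strand for Dlk1, chr6:30737803-30738052 on the plus strand for Mest and chr7:60005200-60005449 on the minus strand for Snrpn.
Igf2: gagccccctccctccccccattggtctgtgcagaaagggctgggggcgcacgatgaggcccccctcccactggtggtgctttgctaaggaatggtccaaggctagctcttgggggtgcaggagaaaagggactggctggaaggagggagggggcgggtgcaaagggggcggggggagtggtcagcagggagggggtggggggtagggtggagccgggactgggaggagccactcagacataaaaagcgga
Dlk1: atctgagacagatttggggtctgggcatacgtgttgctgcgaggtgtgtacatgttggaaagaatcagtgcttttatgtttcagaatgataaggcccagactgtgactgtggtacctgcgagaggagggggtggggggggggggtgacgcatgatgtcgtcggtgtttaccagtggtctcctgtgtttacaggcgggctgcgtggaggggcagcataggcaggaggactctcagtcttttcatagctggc
Mest: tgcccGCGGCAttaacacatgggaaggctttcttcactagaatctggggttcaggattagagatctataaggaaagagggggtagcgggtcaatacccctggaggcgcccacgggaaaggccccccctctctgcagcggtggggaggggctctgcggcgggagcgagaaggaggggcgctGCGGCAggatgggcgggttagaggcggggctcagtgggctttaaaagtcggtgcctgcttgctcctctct
Snrpn: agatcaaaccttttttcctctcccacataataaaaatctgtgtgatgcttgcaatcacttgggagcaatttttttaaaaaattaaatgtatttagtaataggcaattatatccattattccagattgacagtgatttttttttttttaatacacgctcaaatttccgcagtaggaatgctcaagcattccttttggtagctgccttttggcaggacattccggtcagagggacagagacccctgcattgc

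Of these, the Mest window held the hexamer 2 times and the others did not hold it. Among the other members with a wide range, Nnat and Grb10 had windows without the hexamer, not shown. H19 and Peg10 had no window. The search covered both strands, and its letters overlap no other motif searched. Of the 29 measured imprinted genes with a RefSeq window, 4 held it (13.8%), namely Mest, Nap1l5, Plagl1 and Zim1, against 8.48% of 27025 genes. CpG sites numbered 14 in the Mest window, 8 in Dlk1, 6 in Igf2 and 3 in Snrpn, where the median was 11 over the imprinted genes and 5 over all genes. Whether these windows overlap the methylated control regions was not examined, so a window without the hexamer says nothing about those regions. The arrays measured neither methylation nor binding.

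Igf2 and H19 are neighbours that share a control region and enhancers. Igf2, a fetal growth factor read from the paternal copy, had ratios of 1.55, 0.50, -0.55 and -1.24 in replicates 1 to 4. It was thus 2.93-fold higher in shFmr1 cells in replicate 1 and 2.36-fold lower in replicate 4. Its range ranked 129 of 19083 genes. The mean was 0.07 ± 1.22 (SD, n = 4), with an unadjusted limma 95% confidence interval from -0.93 to 1.06. Changes of that size in either direction, and larger ones after adjustment over all genes, could go undetected with 4 arrays. H19, a long noncoding RNA read from the maternal copy, gave 0.93, 0.20, -0.35 and -0.84. The signs and the order of the arrays were those of Igf2, and the mean was -0.01 ± 0.76. Fewer cells that express a gene and less RNA per cell cannot be told apart in such bulk ratios.

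The 11 Igf2 features gave nearly the same value within an array. They lay between 1.39 and 1.91 in replicate 1, between 0.28 and 0.65 in replicate 2, between -0.83 and -0.37 in replicate 3 and between -1.50 and -1.04 in replicate 4. All 11 were above 0 in replicates 1 and 2 and below 0 in replicates 3 and 4, and the values of different arrays did not overlap. The spread between features had an SD of 0.0955 to 0.159, against 1.22 between arrays. All 11 carry the same accession, and whether they are repeated spots of a single probe was not tested. The H19 features, 2 with different accessions, also had the same sign as each other on each array. They read 1.36 and 0.51 in replicate 1 and -0.79 and -0.88 in replicate 4.

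**Figure D3:**
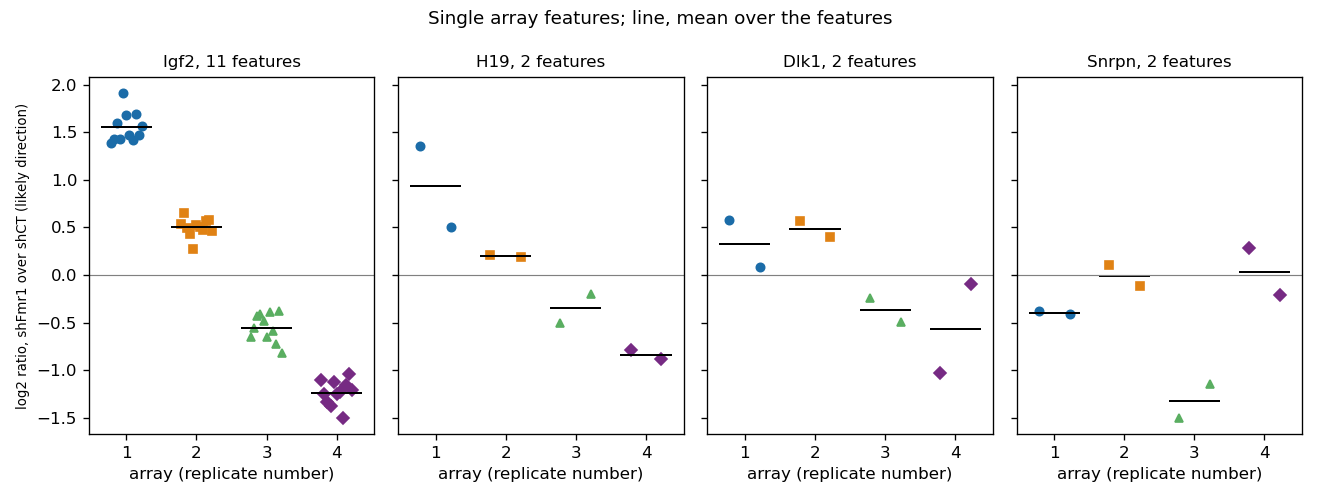
Log2 ratios of shFmr1 over shCT of single array features (points) by replicate for Igf2, H19, Dlk1 and Snrpn, with a line at the mean over the features of the gene. The 11 Igf2 features form 4 groups that do not overlap, and both Snrpn features are lowest in replicate 3.

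Further members had the order of signs seen in Igf2, above 0 in replicates 1 and 2 and below 0 in replicates 3 and 4. This order was chosen after the values were seen. In all, 6 of 35 imprinted genes had it, against 5.65% of all genes, and 0 of 35 had the opposite order, against 5.74%. Mest, a hydrolase-family gene read from the paternal copy in embryonic mesoderm, gave 0.74, 0.35, -0.90 and -0.36 by its single feature. Dlk1, a paternally expressed transmembrane protein that holds back differentiation of preadipocytes, gave 0.33, 0.48, -0.37 and -0.56. Both Dlk1 features kept these signs on each array, although they differed in size in replicate 4, at -1.03 and -0.10. Decorin (Dcn), a matrix proteoglycan of connective tissue, gave 0.26, 0.34, -0.06 and -0.23, and Inpp5f, an inositol phosphatase gene of which a brain transcript is imprinted, stayed between -0.16 and 0.17. In both genes the order rests on 1 of 2 features. The other Dcn feature was above 0 on each array, from 0.07 to 0.33, and the other Inpp5f feature read 0.06, -0.04, 0.19 and 0.05. The means of Mest and Dlk1 were -0.04 ± 0.73 and -0.03 ± 0.51. Meg3, the maternally expressed noncoding RNA beside Dlk1, did not share the order, with -0.11 in replicate 1 and 0.31 in replicate 3.

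Embryonic fibroblasts are a common feeder layer for ES cells, and some of their markers had the order of signs seen in Igf2. The labels do not say whether feeders were used. The cells were sorted for transduced cells, and whether feeder cells remained in these samples was not tested. The 21 measured fibroblast genes of 22 had medians of 0.25, 0.27, 0.02 and -0.19 in replicates 1 to 4. Of the 21, 17 were above 0 and 4 below in replicate 1, and 8 were above and 13 below in replicate 4. Their means were above 0 in 14 and below 0 in 7, down to -0.41. The genes named here all had a mean above 0. The collagen gene Col1a1 read 2.19, 0.54, -0.05 and -0.99, and Col1a2 read 0.93, 0.32, 0.21 and -0.56. The contractile genes Acta2 and Tagln, named after their values were seen, read 1.80 and 1.77 in replicate 1 and -0.52 and -0.81 in replicate 4. Other fibroblast genes moved less by their means over features, such as Col3a1, from 0.62 in replicate 1 to -0.31 in replicate 4. The filament gene Vim went from 0.46 to -0.11 on the same arrays. Single features disagreed in both genes and in Col1a2. In replicate 1 a Col3a1 feature read 1.67 beside others at 0.17 and 0.03. The Vim features read 0.94 and -0.02 there, and those of Col1a2 read 1.83 and 0.04. At an unadjusted limma p under 0.05 there were 2 of the 21 higher, against 1.71% of all genes. They were the matrix genes Col5a1 (0.32 ± 0.23) and Postn (0.22 ± 0.13). Averaged over features, both were above 0 on each array and highest in replicate 4, at 0.66 and 0.31, but their features disagreed. The Col5a1 features read 2.11 and -0.79 in replicate 4, the latter feature being lowest there. The Postn features read 1.18 and -0.62 in replicate 2. The order of signs seen in Igf2 was shared by 4 of the 21, against 5.65% of all genes. For Col1a1 it rests on the mean over features, as 6 of its 12 features were above 0 in replicate 3. The part of such cells in the Igf2, H19, Mest and Dlk1 ratios was not tested. Medians over the other marker lists, in replicates 1 to 4, were -0.30, -0.02, -0.23 and -0.13 for 24 genes of primitive and visceral endoderm and -0.26, -0.10, -0.25 and -0.20 for 13 genes of trophectoderm and placenta. They were -0.08, -0.02, -0.02 and -0.01 for 17 genes of pluripotent ES cells and 0.03, -0.02, 0.05 and 0.13 for 16 neural genes. At an unadjusted limma p under 0.05, 11 of the 24 endoderm genes and 3 of the 13 trophectoderm genes were lower, against 2.05% of all genes. Their part in the imprinted ratios was not tested either.

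**Figure D4:**
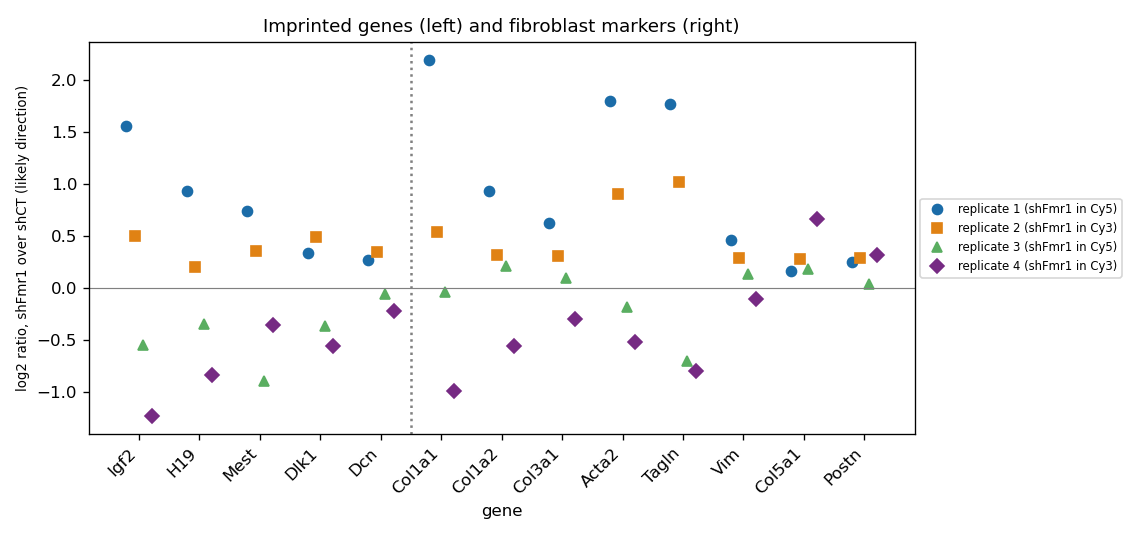
Log2 ratios of shFmr1 over shCT on each of the 4 arrays (marker shape and colour) for 5 imprinted genes (left of the dotted line) and 8 fibroblast markers (right). The 8 markers all have a mean above 0, and 7 of the 21 measured fibroblast genes, not drawn, have a mean below 0. Except in Col5a1 and Postn, replicate 1 is the highest array or next to it and replicate 4 the lowest or next to it. In these genes replicate 4 is the highest, at 0.66 and 0.31 as means over features. The Col5a1 features read 2.11 and -0.79 there.

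Snrpn had the lowest mean of its cluster. It encodes SmN, a splicing protein, and is read from the paternal copy in the region lost in Prader-Willi syndrome. It gave -0.40, -0.01, -1.32 and 0.03 in replicates 1 to 4, so that replicate 3 was 2.50-fold lower in shFmr1 cells and replicates 2 and 4 lay at 0. Its mean was -0.42 ± 0.63 (SD, n = 4), with a 95% confidence interval from -0.81 to -0.04. In limma Snrpn had an unadjusted p of 0.0367 and an adjusted p of 0.973. Without the dye term its unadjusted limma p was 0.0946. The dye effect had an unadjusted p of 0.0330, and both arrays with shFmr1 in Cy5 were below both with shFmr1 in Cy3. Without replicate 3 the mean was -0.12 ± 0.24 (n = 3). Snurf, which is encoded upstream on the same transcript and is counted among the other imprinted genes, gave -0.63, -0.26, -1.19 and 0.14. Replicate 3 was the lowest array for it as well, and its mean without that array was -0.25 ± 0.38 (n = 3). For Snurf too, both arrays with shFmr1 in Cy5 were below both with shFmr1 in Cy3. The unadjusted limma p of this dye effect was 0.0169.

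The neighbours of Snrpn did not share its low value in replicate 3. Ndn and Magel2, MAGE-family genes that are paternally expressed, were highest in replicate 1, at 0.44 and 0.37, and lay between -0.30 and -0.05 on the other arrays. Mkrn3, a makorin ubiquitin ligase gene, was below 0 on each array, from -0.28 to -0.09, with a mean of -0.16 ± 0.09. Ube3a, the ubiquitin ligase gene behind Angelman syndrome, which is imprinted in neurons, averaged 0.05 ± 0.16.

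Peg10 had the widest range of the imprinted genes. It is a paternally expressed gene derived from a retrotransposon and needed for the placenta. It read -0.28, -0.20, -2.61 and 0.23 in replicates 1 to 4, with the value of replicate 3 being 6.10-fold lower in shFmr1 cells. The mean was -0.71 ± 1.28 (SD, n = 4), and -0.08 ± 0.28 (n = 3) without replicate 3. As Peg10 had 1 feature, a second reading of this value was not available here. Sgce, the sarcoglycan gene whose promoter is shared with Peg10 and which is read from the same parental copy, did not follow it. Sgce gave 0.46, 0.13, 0.16 and -0.05, and its 2 features read 0.14 and 0.19 in replicate 3. Calcr, the calcitonin receptor gene nearby, named after its values were seen, read -1.87 in replicate 3 and between -0.41 and 0.11 on the other arrays, but its features disagreed there, at -2.81 and -0.93. Ppp1r9a, a scaffold protein of actin and phosphatase, and Asb4 stayed between -0.25 and 0.16.

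Nnat, a membrane protein gene of neural and endocrine cells that is paternally expressed, was also low in replicate 3 only. It read 0.26, -0.02, -1.15 and 0.16, with a mean of -0.19 ± 0.65 over 4 arrays and 0.13 ± 0.14 (n = 3) without that array. Blcap, the gene in whose intron Nnat lies, read -0.07, 0.04, -0.29 and 0.57. One of the 3 Blcap features read 1.91 in replicate 4, and the other features of the gene were at -0.20 and -0.01 there. Grb10, an adaptor that restrains insulin and growth factor signalling, showed the same kind of value. Its array means were -0.16, 0.03, -0.06 and 0.93, but in replicate 4 a single feature at 2.39 stood beside features at 0.21 and 0.18. Without replicate 4 the mean of Grb10 lay at -0.06. Its neighbour Ddc, the dopa decarboxylase gene, averaged 0.09 ± 0.17.

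**Figure D5:**
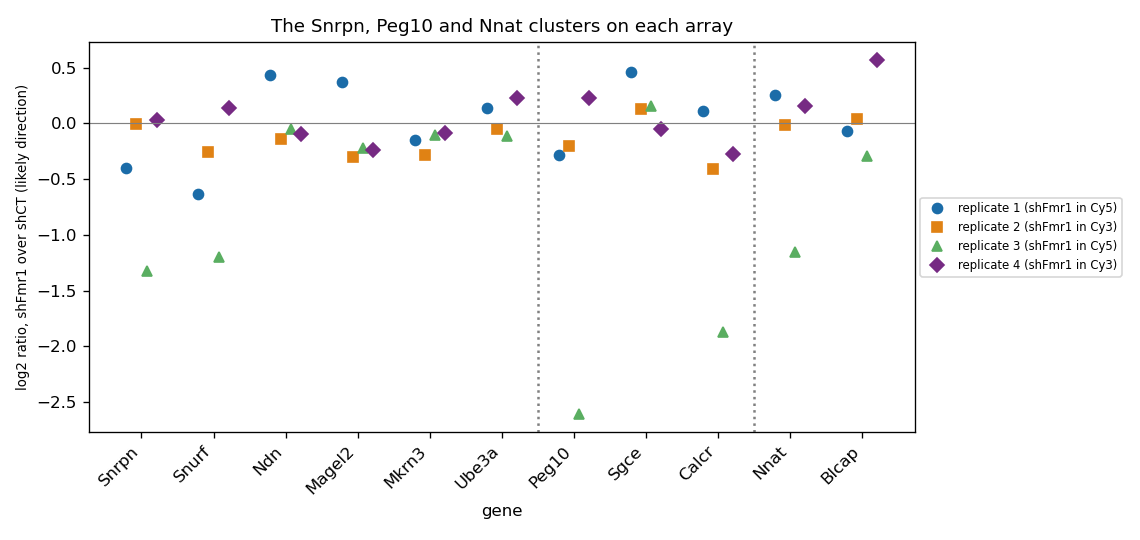
Log2 ratios of shFmr1 over shCT on each of the 4 arrays (marker shape and colour) for genes of the Snrpn, Peg10 and Nnat clusters, separated by dotted lines. Replicate 3 is the lowest array for Snrpn, Snurf, Peg10, Calcr and Nnat, at -1.15 or below, while Sgce and Mkrn3 stay within 0.5 of 0.

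Impact and Tssc4 differed from these in being uniform. Impact, a paternally expressed inhibitor of the GCN2 stress kinase, read -0.20, -0.11, -0.38 and -0.26, and averaged -0.24 ± 0.11. Tssc4, which lies in the Cdkn1c domain, read -0.14, -0.16, -0.37 and -0.26, and averaged -0.23 ± 0.11. The unadjusted limma p was 0.0362 for Impact and 0.0404 for Tssc4, and the adjusted p was 0.973 for both. Their confidence intervals ran from -0.46 to -0.02 and from -0.46 to -0.01. Each rests on 1 feature. With Mkrn3 they made 3 of 35 imprinted genes that were below 0 on all 4 arrays, against 5.88% of all genes, and 0 of 35 were above 0 on all 4, against 5.37%.

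The Cdkn1c domain, whose members were classed here as maternally expressed, held no further gene below the unadjusted threshold. Cdkn1c, which encodes a cyclin-dependent kinase inhibitor, gave -0.21, 0.52, 0.03 and -0.16. Phlda2, which limits growth of the placenta, gave -0.13, -0.52, 0.17 and -0.38, and averaged -0.22 ± 0.30. Ascl2, a trophoblast transcription factor, gave 0.55, -0.22, 0.14 and -0.24, and its mean was 0.06 ± 0.37. In both genes the array means with shFmr1 in Cy5 were above those with shFmr1 in Cy3, but for Ascl2 the features disagreed. An Ascl2 feature read 0.95, -0.64, 0.59 and -0.99, and the other read 0.15, 0.20, -0.31 and 0.52, with both Cy3 arrays above both Cy5 arrays. The unadjusted limma p of the dye effect was 0.0491 for Phlda2 and 0.0306 for Ascl2. Slc22a18, a transporter-like gene, averaged -0.16 ± 0.37, and the tetraspanin gene Cd81 averaged 0.02 ± 0.11.

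Igf2r, the receptor that clears IGF2 from the cell surface, also split by dye. It read 0.51 and 0.52 with shFmr1 in Cy5, and -0.47 and -0.02 with shFmr1 in Cy3, around a mean of 0.13 ± 0.47 (unadjusted limma p of the dye effect = 0.0111). In all, 4 of 35 imprinted genes, Igf2r, Phlda2, Ascl2 and Snrpn, had a dye effect at an unadjusted p under 0.05, against 6.49% of all genes, and limma called 0 at an adjusted p of 0.05 (0% of all genes).

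The remaining members had ranges under 1. Peg3, a zinc finger gene, averaged 0.16 ± 0.19, its neighbour Usp29, a ubiquitin protease gene, -0.00 ± 0.17, and the maternally expressed Zim1 -0.13 ± 0.21. Gnas, the gene of the stimulatory G protein alpha subunit with several imprinted transcripts, averaged -0.05 ± 0.11 over 8 features. A single Gnas feature, matched to an accession of its own, read -2.78 in replicate 1, while the other features of the gene lay between -0.20 and 0.54 there. Plagl1, a zinc finger factor, averaged -0.03 ± 0.34, the amino acid transporter gene Slc38a4 -0.08 ± 0.12 and Nap1l5 -0.01 ± 0.39. Nap1l5 and Plagl1 were the most variable of these, with ranges of 0.875 and 0.733. Feature means differed in sign for 14 of the 21 members that had several features, and 37 of the 80 features had a mean above 0. How many of all genes have features that differ in sign was not determined.

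Split by parental copy, 12 of 16 paternally expressed members had a mean below 0 (median -0.04), as did 8 of 13 maternally expressed ones (median -0.02), where 50.5% of all genes did. Members classed apart, as imprinted by tissue or transcript (Grb10, Ddc, Blcap, Ube3a, Gnas and Inpp5f), had 1 of 6 below 0. The classes were assigned gene by gene and not from these arrays, which do not tell parental copies apart. Whether they hold in ES cells was not examined. A range of at least 1 was found in 6 of 16 paternally expressed members, against 8.01% of all genes. It was found in H19 alone of 13 maternally expressed ones and in Grb10 alone of the 6. The difference between these classes was not tested.

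Other imprinted genes and the factors that keep imprints were read from lists of their own. Of 53 other imprinted genes 44 were measured, with a median of -0.03. At an unadjusted limma p under 0.05, 3 were lower and 1 higher, against 2.05% and 1.71% of all genes. Lower were Snurf, Cdh15, a cadherin gene of muscle (-0.43 ± 0.26), and Atp10a, a phospholipid flippase gene (-0.33 ± 0.43), and higher was Peg12, a Frat-family gene (0.44 ± 0.37). Their adjusted p was 0.973 in limma. Atp10a was low only with shFmr1 in Cy3, at -0.78 and -0.63, and near 0 with shFmr1 in Cy5. Snurf, as given above, was lower with shFmr1 in Cy5 than in Cy3. A range of at least 1 was found in 5 of the 44, against 8.01% of all genes. Of 26 imprint regulators 24 were measured, with a median of 0.03. Against 2.05% of all genes, 2 of the 24 were lower at an unadjusted limma p under 0.05. These were the de novo methylation genes Dnmt3b (-0.76, 0.08, -1.27 and 0.33) and Dnmt3l (-0.93, 0.19, -0.76 and 0.17), both below 0 only with shFmr1 in Cy5. Dnmt1 and Uhrf1, which copy methylation onto new DNA strands, averaged 0.06 ± 0.05 and 0.08 ± 0.17. Trim28, the corepressor at imprinted control regions, read 0.33, 0.32, -0.04 and -0.20, the order of signs of Igf2, and averaged 0.10 ± 0.27. Dppa3, which guards maternal methylation in the zygote, read -0.65, -0.42, 0.88 and 0.17, the opposite order. Of the 24 regulators, 3 had the order of Igf2 and 3 the opposite, against 5.65% and 5.74% of all genes. Zfp57 had no feature with its symbol alone and is not analysed here.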

How the data were processed

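The authors' deposited table gives 1 log ratio per feature and array for 4 two-colour arrays, per the labels labelled with an Agilent kit, and is read here as log2. For normalization, software and log base the sources used here say nothing. Each array has a mean of 0 in the table, so it was centred before deposit. Channel intensities were not analysed here and dim features stayed in, and the number of arrays limits the precision.

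Features with 1 gene symbol in the platform annotation (33649 of 45214) were averaged per gene and array, which gave 19083 genes. The model, run in limma 3.58.1 under R 4.3.3 (lmFit, eBayes), held the ratio and a dye effect. Benjamini-Hochberg adjustment ran over all genes, and 0.05 was the threshold. On simulated data for 19083 genes, 65 of 100 genes changed by 1 log2 unit and 93 of 100 changed by 2 were recovered. A further 5 unchanged genes were called. The simulation used independent normal noise, no dye effect and all these changes at once. It thus differs from the real arrays, where 0 genes were called, and recovery there was not tested.

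The members, gene lists and rules were chosen with earlier results of these data known. Values on each array are given for members with an unadjusted p under 0.05 for either effect, an absolute mean of at least 0.3 or a range of at least 1. Other lists name genes below that p, at most 4 in each direction, and some regulators and fibroblast genes fixed by name. Endoderm, placental, pluripotency and neural markers are given as list medians. Mkrn3, Ndn, Magel2, Sgce, Cdkn1c, Dcn, Blcap, Meg3, Calcr, Acta2 and Tagln were given array values after these were seen. Sequences come from RefSeq (GRCm38.p6). All 4 arrays lie on 1 slide by their titles, so slide is no batch. Alternatives were other centring, scaling and feature summaries, a fit without dye, a robust prior, single features, another threshold and leaving out each array.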

Additional observations from a re-analysis of the deposited data

Results flagged for a closer look

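For 3 of 63 results, counting genes and list medians, Dixon's criterion set a single array apart, and chance alone sets apart about 1 in 20, or 3.15. Ndn read 0.44 in replicate 1 and between -0.14 and -0.05 on the other arrays. Its neighbour Magel2 read 0.37 in replicate 1 and between -0.30 and -0.22 on the others. The median over the 35 imprinted genes was 0.14 in replicate 1 and between -0.10 and -0.06 on the others. The causes were not tested. The low values of Snrpn, Peg10 and Nnat in replicate 3 did not meet the criterion.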

How the results depend on the processing

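No imprinted gene passed limma's adjusted threshold in any fit run, single features and arrays left out included. The 3 imprinted genes at an unadjusted limma p under 0.05 became 2 without the dye term, as Snrpn left them. With 1 feature per gene 0 remained, at 0.0868 for Snrpn, 0.0591 for Impact and 0.0644 for Tssc4. Other centring, scaling, quantile normalization, the median over features and a robust prior each kept 3. Quantile normalization called 2 genes in all and brought Fmr1 past the threshold (-1.63, adjusted p = 0.0226). With the dye term kept, leaving out replicates 1, 2, 3 and 4 in turn called 25, 87, 10 and 0 genes, and 1 array then stands alone in its orientation and is assumed to vary like the others. Fmr1 then lay between -1.49 and -1.25, past the threshold without replicate 1 (adjusted p = 0.0382) or replicate 2 (adjusted p = 0.0327). Without the dye term these fits called 0 genes, with 592 to 670 at an unadjusted p under 0.05 in limma. The imprinted median was -0.02 as reported, -0.04 to -0.01 in the other settings and -0.08 to 0.07 with an array left out.

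The sign of H19 turned when arrays were centred and scaled (0.0023), with quantile normalization (0.0430) and with 1 feature per gene (0.0685). Mest turned with quantile normalization (0.0893) and Ascl2 with 1 feature per gene (-0.0223). The cause was not tested. With arrays left out and the dye term kept, signs turned for Igf2 (-0.46 to 0.59), H19 (-0.33 to 0.31), Mest (-0.45 to 0.37), Dlk1 (-0.29 to 0.23), Nnat (-0.54 to 0.17), Grb10 (-0.0389 to 0.41) and Ascl2 (-0.0437 to 0.16). Without the dye term they turned for Igf2 without replicate 1 (-0.43) or 2 (-0.0796), for H19 (0.10), Mest (0.24), Dlk1 (0.0829) and Nnat (0.13) without replicate 3, for H19 (0.26), Mest (0.0638), Dlk1 (0.15) and Grb10 (-0.0629) without replicate 4, and for Ascl2 without replicate 1 (-0.10). Snrpn (-0.66 to -0.12), Peg10 (-1.30 to -0.08), Impact (-0.28 to -0.19) and Tssc4 (-0.29 to -0.18) stayed below 0 with any array left out. A range of at least 1 was found in 5 to 7 imprinted genes without 1 array, against 4.60% to 6.09% of all genes. Each array holds both RNAs of a replicate, so its ratio is already the difference within the pair, and no further pairing was applied.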
